A study of Mus musculus with 7 samples.

Results

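The genes described here encode the mitochondrial ribosomal proteins. They were taken as the protein-coding genes of GENCODE M21 whose symbol begins with Mrpl or Mrps followed by a number. This gave 78 of 21938 protein-coding genes, 49 Mrpl and 29 Mrps. Mrpl is named for the large subunit and Mrps for the small one. The proteins of Mrps30 and Mrps18a, however, sit in the large subunit. Their promoters were read in bulk ATAC-seq, in which a transposase inserts sequencing adapters into open chromatin. The material was HPC7, a mouse hematopoietic progenitor cell line kept in medium with stem cell factor. The 7 libraries, called HPC7-1, HPC7-2 and HPC7-4 to HPC7-8 after their replicate numbers, came from independent culture batches of this 1 line. The sample labels give all 7 the same description and no treatment, so they were taken as 1 group.

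Mitochondria keep their own ribosomes, which translate the few messenger RNAs of the mitochondrial genome, all for subunits of the respiratory chain and ATP synthase. The ribosomal RNAs are made in the organelle, but every protein of these ribosomes is encoded in the nucleus, made in the cytosol and imported. Some members descend from bacterial ribosomal proteins, and others were added in the mitochondrial lineage and have no bacterial counterpart. The genes are scattered over the chromosomes and are used in nearly all cells, so their promoters offer a view of housekeeping open chromatin.

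Each library was given as a list of open chromatin regions (OCRs), between 84593 and 132852 of them. The level of an OCR was the fold enrichment at its summit, that is, the reads there over a background level. The values of each library were whole multiples of 1 step, which gives 1 background value per library and no local one. HPC7-1 stood apart in depth: its background was about 20.4 reads, against 4.44 to 7.45 in the other libraries. The median summit of a member's OCR held between 348 and 1863 reads. The labelled cell type was checked with marker genes. OCRs were found in all 7 libraries at the starts of 9 of 10 blood progenitor genes, among them Kit, Cd34, Spi1 and Tal1, and Gata2 was the exception at its annotated gene start. Of 9 genes of other tissues, 7 had no OCR in any library, as had 9417 of all 21938 protein-coding genes. Apoa1 had one in 1 library. Gfap had one in all 7, with a mean fold enrichment of 18.2, near that of Lmo2. In the files of the first 3 libraries (HPC7-1, HPC7-2, HPC7-4) the name of each OCR carries the prefix VD, and in the remaining 4 the prefix EtOH. No sample label explains the prefixes, so no test compared them, and whether they mark a difference in treatment cannot be told from the labels. The members' median percentile within each prefix is given below.

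Nearly all of these promoters were open. Within 1 kb of the annotated gene start, 76 of the 78 members (97.4%) had an OCR in all 7 libraries, against 51.6% of all protein-coding genes. The same 76 members were open in each library, so the share had no spread between libraries. For comparison, 82 of 86 cytosolic ribosomal protein genes and 88 of 95 nuclear genes of the respiratory chain had an OCR in all libraries. Mrpl33 and Mrpl35, 2 proteins of the large subunit with bacterial counterparts, had none in any library.

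Both exceptions, and the weakest OCR, went with the position of the annotated gene start. In Mrpl33, Mrpl35 and Mrps24 the annotated 5′ end of the gene belonged to a transcript that is not protein-coding, and the start of the protein-coding transcript lay 17004, 3159 and 7993 bp further along. At the protein-coding start all 3 had an OCR in all 7 libraries. The fold enrichment there was lowest at 44.6, with a median of 65.6 and a highest value of 80.7, for Mrpl33. It ran from 29.3 over a median of 36.9 to 50.5 for Mrpl35. Mrps24, the S3 protein of the small subunit at the entry of the messenger RNA, had 61.3, 88.5 and 102 at the protein-coding start, and only 3.29, 4.18 and 8.09 at the gene start. The values at the 2 positions did not overlap in any library. With protein-coding transcript starts, a choice made after seeing the data for the levels below, all 78 members were open in all 7 libraries, against 54.6% of all protein-coding genes.

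**Figure D1:**
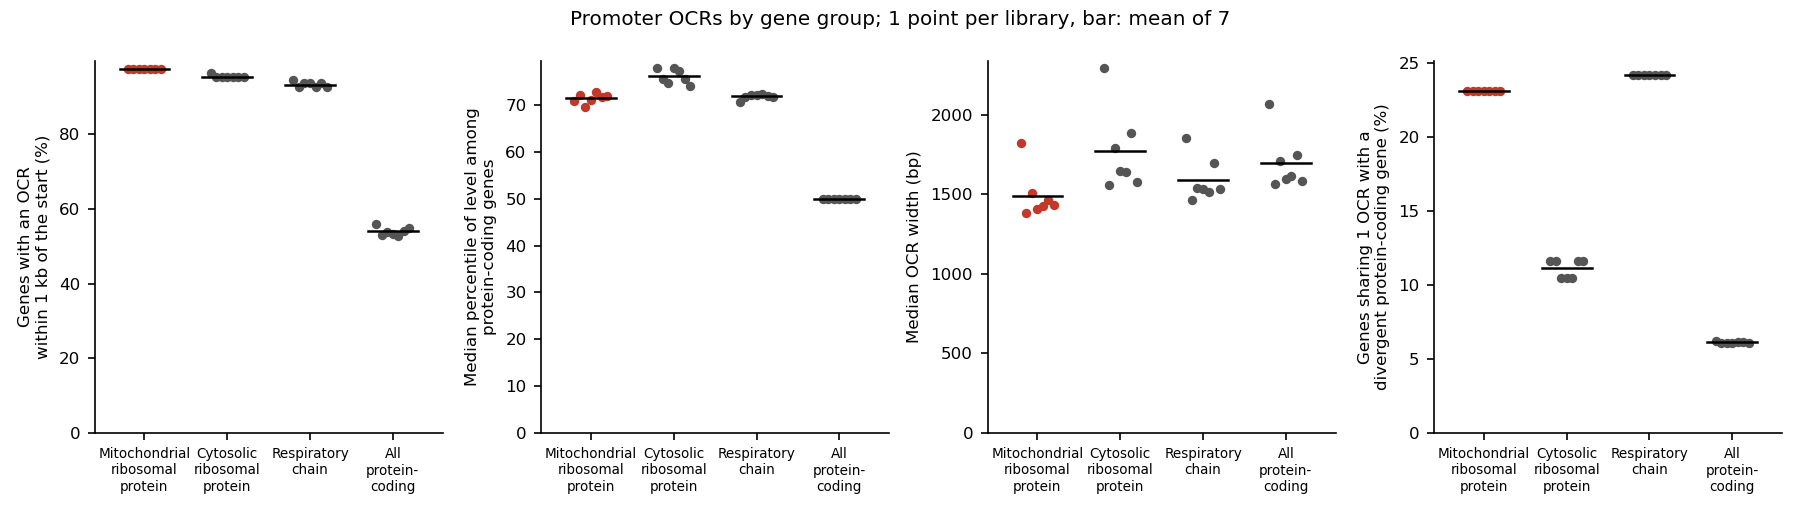
Share of genes with an OCR, median percentile of the level among protein-coding genes, median OCR width in bp and share of genes that share their OCR with a divergent gene, for 4 gene groups. Each point is 1 library and each bar the mean of 7; the mitochondrial ribosomal protein genes lie far above all protein-coding genes in the shares but have narrower OCRs, and HPC7-1 has the widest OCRs in every group.

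Open did not mean strong. The median fold enrichment of members with an OCR was 73.8 ± 12.2 (SD, n = 7 libraries), between 54.6 and 87.2, and that of all protein-coding genes with an OCR was 76.8 ± 13.01, between 55.5 and 92.6. Ranked among all 21938 genes, where a gene without an OCR counts as 0, the median member was at percentile 71.5 ± 1.01. Ranked only among genes with an OCR in the same library, it was at 48.1 ± 2.16, close to the middle. At or above percentile 75 in all 7 libraries were 23 members (29.5%), against 21.3% of all protein-coding genes. Among promoters open in all libraries the order was the other way, with 30.3% of the 76 members and 41.2% of the 11327 genes. Cytosolic ribosomal protein genes had a median percentile of 76.2 ± 1.58 and respiratory chain genes one of 71.9 ± 0.56. Within the name prefixes the members' median percentile was 70.9 over the 3 VD libraries and 71.9 over the 4 EtOH libraries.

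To compare genes across libraries of unequal depth, the level was also expressed as log2 of the fold enrichment minus the library's median over the 11327 protein-coding promoters open in all libraries. Levels relative to this median were tested per gene with limma over the 7 libraries, with Benjamini-Hochberg adjustment over the 11327 genes. Of the 76 members tested, 27 were above the median promoter OCR (35.5%, against 45.6% of all genes tested) and 36 were below it (47.4%, against 45.7%). The other 13 were not separated from it. The median member was at -0.09, and the median of all genes tested was 0.00. These shares describe the list, and no test compared it with other lists.

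**Figure D2:**
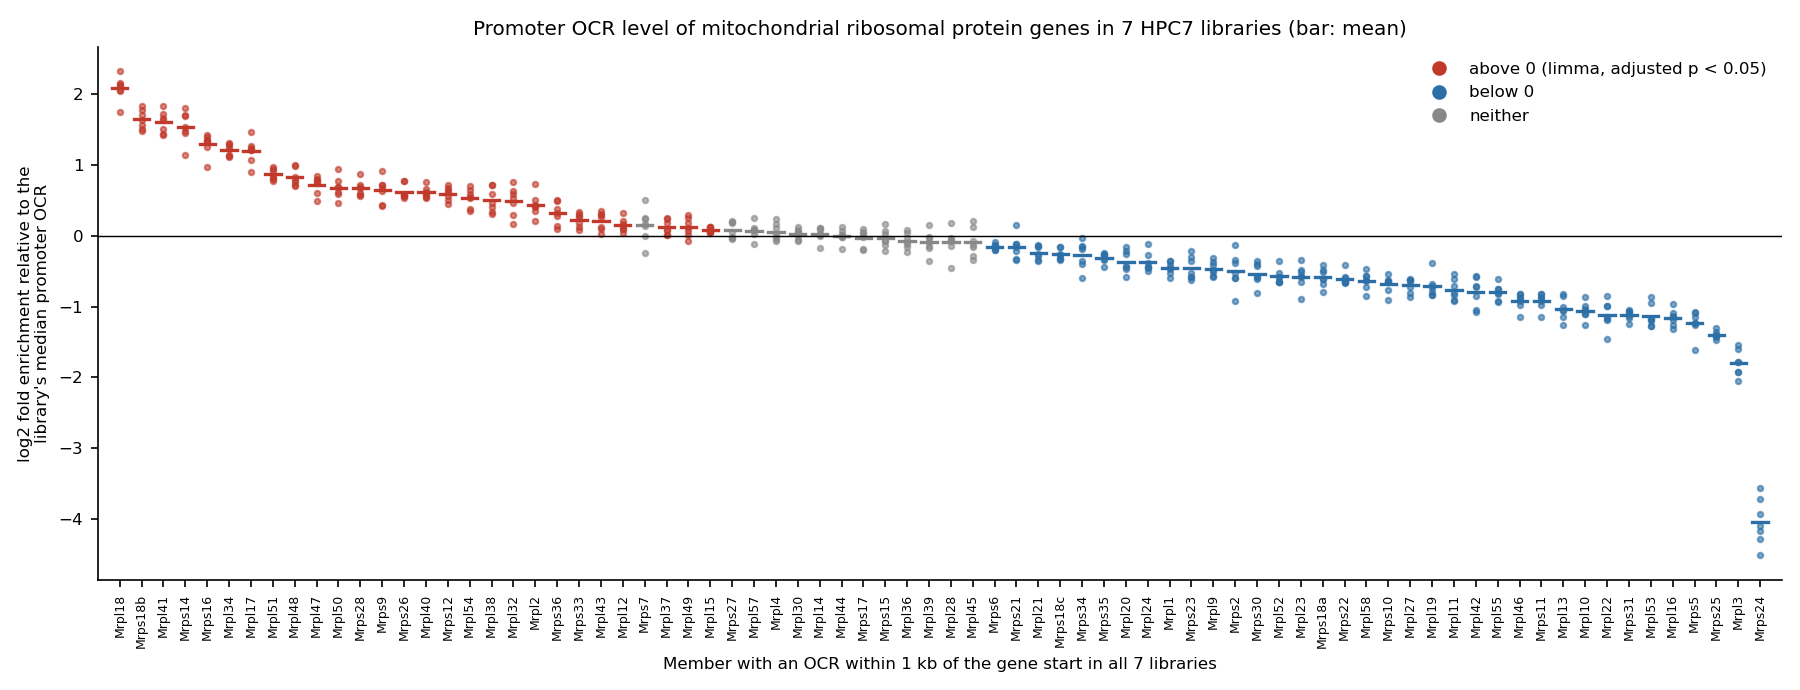
Level of each member's promoter OCR in each of the 7 libraries, as log2 fold enrichment relative to the library's median promoter OCR, ordered by the mean (bars). Members above 0 by limma (27) are red, those below (36) blue and the rest (13) grey; Mrpl18 leads at 2.09 and Mrps24, read at its gene start, closes at -4.04.

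The most intense member was Mrpl18, a protein of the central protuberance of the large subunit, on chromosome 17 with its start at 12916345 (minus strand, mm10). Its fold enrichment was lowest at 248, with a median of 320.2 and a highest value of 427 over the 7 libraries, and it ranked first among the members in each of them. Its level was 2.09 ± 0.18 (SD, n = 7) on the log2 scale over the median promoter OCR (limma, adjusted p = 1.75e-11), at percentile 99.9 of all protein-coding genes. Mrps18b (200.7, 259 and 312), Mrpl41 (162, 258 and 341) and Mrps14 (184, 232 and 288) followed with means of 1.65, 1.61 and 1.55, and these 3 exchanged ranks 2 to 4 between libraries. Mrps18b is 1 of 3 paralogues of bacterial S18, Mrps14 is the S14 protein of the small subunit, and Mrpl41 has no bacterial counterpart. Mrps16, the S16 protein, had 144, 188 and 252 and a mean of 1.30.

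Not every step in this order was larger than the spread between libraries. Neighbours were compared with an exact two-sided sign-flip permutation test of their log2 ratio over the 7 libraries. This was done for 8 pairs at the ends of the order, where the smallest possible p is 0.0156. The pairs and their order came from the mean levels in the same 7 libraries, and the p-values do not allow for that choice. Mrpl18 exceeded Mrps18b in 7 of 7 libraries, by 0.44 ± 0.11 (exact p = 0.0156, adjusted over the 8 pairs 0.0312). Mrps14 exceeded Mrps16 in 7 of 7, by 0.25 ± 0.12 (exact p = 0.0156, adjusted 0.0312). Mrps18b and Mrpl41 were not separated (0.04 ± 0.14, exact p = 0.578), nor were Mrpl41 and Mrps14 (0.06 ± 0.20, exact p = 0.422).

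At the other end, Mrpl3, a core protein of the large subunit with a bacterial counterpart, had fold enrichments of 18.6, 19.998 and 32.8 (lowest, median and highest) and a level of -1.80 ± 0.18. Next came Mrps25 (22.996, 30.8 and 37.2), which has no bacterial counterpart, Mrps5 (23.6, 33.8 and 45.5) and Mrpl16 (26.4, 34.3 and 48.8), both with one. The level of Mrps5 was -1.23 within 1 kb of its start and -0.54 when the most intense OCR within 3 kb was taken. Mrpl3 was below Mrps25 in 7 of 7 libraries, by 0.40 ± 0.15 (exact p = 0.0156, adjusted 0.0312), and Mrps24 at its gene start was below Mrpl3 by 2.24 ± 0.34 with the same p. Mrps5 and Mrps25 (0.16 ± 0.19, exact p = 0.0781) and Mrpl16 and Mrps5 (0.08 ± 0.17, exact p = 0.297) were not separated. The highest fold enrichment of Mrpl3 was far below the lowest of Mrpl18, both being large subunit genes.

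Among members grouped by the place of the protein in the ribosome, levels were mixed. Of the stalk proteins that recruit translation factors, Mrpl12 was above the median promoter OCR (60.7, 88.2 and 119, level 0.16 ± 0.09, limma adjusted p = 0.0042), and Mrpl10 (29.9, 38.2 and 48.0, level -1.06 ± 0.12) and Mrpl11 (37.8, 44.0 and 62.9, level -0.76 ± 0.15) were below it. Around the exit of the peptide tunnel, Mrpl22 (-1.11), Mrpl23 (-0.58) and Mrpl24 (-0.37) were below, and Mrpl47 (0.72) and Mrpl17, 2 proteins of that site outside the list by role, were above. Mrpl45, which holds the ribosome at the inner membrane, was at -0.09 ± 0.20 and was not separated from the median (limma adjusted p = 0.199). In the central protuberance, Mrpl48 (0.83), Mrpl40 (0.61) and Mrpl38 (0.51) were above, as was Mrpl18, whereas Mrpl46 was below at -0.92. Other proteins of that site, not in the list by role, were below too, with Mrpl52 at -0.57, Mrpl58 at -0.63 and Mrpl27 at -0.70. Mrps12, the S12 protein of the decoding centre, had fold enrichments of 90.3, 127 and 157 and was above at 0.60 ± 0.10. The 3 S18 paralogues were spread widely, with Mrps18b at 1.65, Mrps18c at -0.26 and Mrps18a at -0.58.

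By symbol, 18 of 47 Mrpl genes tested were above and 20 below, and 9 of 29 Mrps genes were above and 16 below. The Mrps genes below include Mrps30 (-0.54) and Mrps18a (-0.58), whose proteins sit in the large subunit. These are 38.3% and 42.6% of the Mrpl genes and 31.0% and 55.2% of the Mrps genes, beside 45.6% above and 45.7% below among all genes tested. By origin, 14 of 46 members with a bacterial counterpart were above (30.4%) and 24 below (52.2%), with a median level of -0.16. Of the 30 without one, 13 were above (43.3%) and 12 below, near the shares among all genes tested, with a median of 0.04. These groups of members were not compared by a test.

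Levels of the members were steady between culture batches. The median SD of a member's level over the 7 libraries was 0.13, as for all genes open in all libraries (0.13), and the SD between members' mean levels was 0.90. The most variable members were Mrps24 at its gene start (SD 0.33), Mrps2 (0.25) and Mrps7 (0.24). Mrps2, the S2 protein, ran from 37.2 over 49.8 to 87.2 in fold enrichment. Its highest value was in HPC7-5 and its lowest level relative to the median was in HPC7-4. Mrps7, the S7 protein, ran from 66.8 over 80.8 to 136 and was not separated from the median promoter OCR (0.16, limma adjusted p = 0.0648). Without HPC7-4, its lowest library, Mrps7 was above at 0.22 (limma adjusted p = 0.00584).

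The OCRs were somewhat narrow. Their median width was 1491 ± 150 bp (SD, n = 7), against 1695 ± 176 bp for all protein-coding genes with an OCR, 1768 ± 258 bp for cytosolic ribosomal protein genes and 1590 ± 138 bp for respiratory chain genes (all n = 7). In HPC7-1 the median width was 1818 bp and in the other libraries it lay between 1384 and 1508 bp. Without HPC7-1 the mean was 1436 bp. The 3 widest were those of Mrps18b (6243 ± 558 bp), Mrps34 (3765 ± 1275 bp) and Mrpl34 (3088 ± 88 bp). Across the 76 members, wider OCRs had higher levels (Spearman's rho 0.56, and 0.58 across all 11327 genes). This is a description across genes, which share the same libraries and the same peak calling. Mrps34 departed from this trend, with a wide OCR and a level of -0.27.

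**Figure D3:**
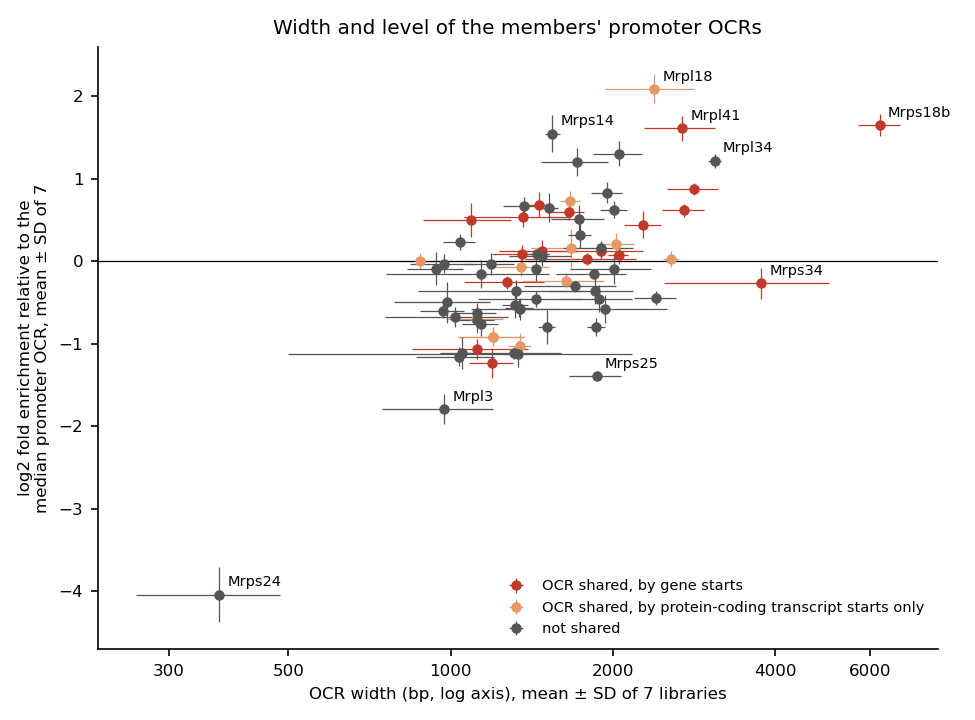
Mean width in bp (log axis) and mean level of each member's promoter OCR, with SD over 7 libraries, coloured by whether the OCR is shared with a divergent protein-coding gene. Mrps18b is the widest (6243 bp), Mrps24 at its gene start the narrowest and lowest, and Mrps34 is wide without a high level.

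Mean summits fell within 150 bp of the nearest protein-coding transcript start in 63 of the 76 members with an OCR (82.9%), against 70.9% of all genes open in all libraries, with the nearest start chosen in the same way. Mean summits were in an untranslated exon in 28 of the 76 members with an OCR, outside the gene in 29, in coding sequence in 10 and in an intron or other exon in 9, a tally made for the members alone. Mrpl53 was an exception, with its median summit 1248 bp upstream of its start and a range from -1300 to 132 bp.

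Many members shared their open promoter with a second gene. In 18 of the 78 (23.1%), 1 OCR reached the gene starts of both the member and a protein-coding gene read in the opposite direction from up to 1 kb upstream, in all 7 libraries, against 6.04% of all protein-coding genes. Among the genes open in all libraries the share was 11.7%. It was 10.5% for cytosolic ribosomal protein genes and 24.2% for respiratory chain genes. These groups are not wholly separate from the members. Fau in the first shared the OCR of Mrpl49, and by protein-coding starts Ndufs6 and Ndufb5 in the second shared those of Mrpl36 and Mrpl47. When protein-coding transcript starts were used and an overlap of the transcripts by up to 300 bp was allowed, a definition added after seeing the data, the number rose to 30 members (38.5%), against 9.22% of all protein-coding genes and 17.6% of those open in all libraries. Over the 30 members the distances between the starts had a median of 64.5 bp, with the pair of Mrpl46 and Mrps11 counted once for each gene. In 6 pairs the transcripts overlapped, and the longest gap was 935 bp, between Mrpl41 and the lipase gene Pnpla7.

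**Figure D4:**
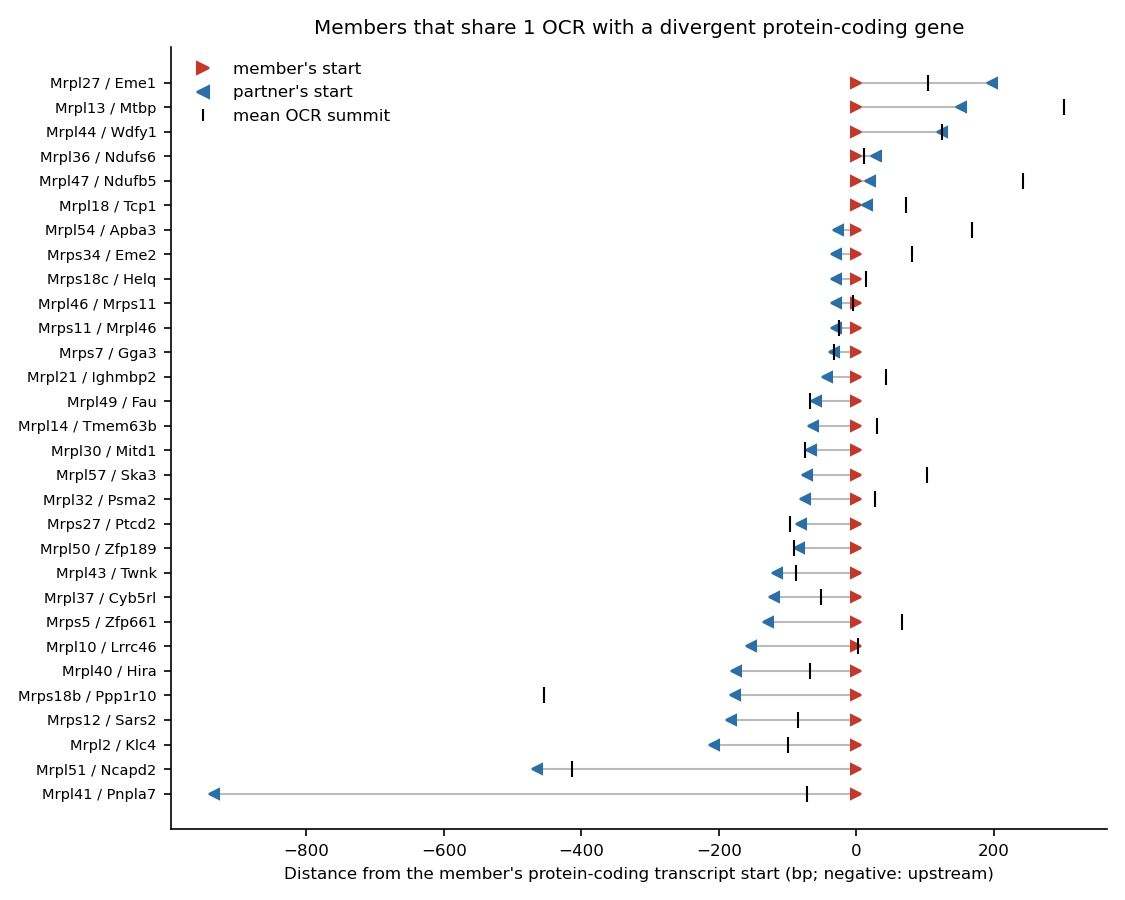
Start of the member (red, at 0), start of its divergent protein-coding partner (blue) and mean OCR summit (black) for the 30 members whose OCR is shared, in bp from the member's protein-coding transcript start. Most starts lie within about 200 bp of each other, and the pair with Pnpla7 is the widest at 935 bp.

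One OCR served 2 members. Mrpl46 and Mrps11 lie head to head on chromosome 7 with 30 bp between their protein-coding starts, and so a large and a small subunit gene had the same values in each library, with fold enrichments of 31.0, 38.7 and 53.9. These 2 rows are therefore 1 measurement. Several other partners also act in mitochondria, but their share was not compared with that among partners of all protein-coding genes. Sars2, beside Mrps12, charges the mitochondrial serine tRNA, and Ptcd2, beside Mrps27, encodes a pentatricopeptide repeat protein. By protein-coding starts, Mrpl36 and Mrpl47 shared OCRs with Ndufs6 and Ndufb5, subunits of complex I, and Mrpl43 with Twnk, the helicase that replicates mitochondrial DNA. Other partners have roles elsewhere in the cell. Among them are the condensin subunit gene Ncapd2 (Mrpl51), the histone chaperone Hira (Mrpl40), the proteasome subunit Psma2 (Mrpl32), Ppp1r10, a regulatory subunit of a nuclear phosphatase (Mrps18b), Fau, which encodes a cytosolic ribosomal protein (Mrpl49), the chaperonin subunit Tcp1 (Mrpl18), and Eme1, Eme2 and Helq of DNA repair (Mrpl27, Mrps34 and Mrps18c).

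Levels were higher where the OCR was shared by gene starts. The 18 members with a divergent partner by gene starts had a median level of 0.29 ± 0.08 (SD, n = 7) and a median percentile of 80.0, and the 60 others had a median percentile of 68.4. The median level of the 58 of these with an OCR at the gene start was -0.27 ± 0.07. The lowest library value of the first group, 0.18, lay above the highest of the second, -0.19. All protein-coding genes with a partner had a median level of 0.45 ± 0.04 and those without one -0.13 ± 0.02. The members had the same order, with a lower median both with a partner and without one. Under the definition by protein-coding starts, with levels also read there, the gap was smaller. The 30 members that shared an OCR had a median level of 0.11 ± 0.06, between 0.02 and 0.21, and the 48 others -0.32 ± 0.06, between -0.43 and -0.23. The 12 members added by this definition had a median of -0.07 ± 0.08, whereas the 748 genes added among all protein-coding genes had one of 0.36 ± 0.05. By gene starts, the most intense shared OCRs were those of Mrps18b, Mrpl41, Mrpl51 (109, 152 and 188), Mrpl50 (85.6, 132 and 163, beside the zinc finger gene Zfp189) and Mrpl40 (89.2, 127 and 147). By protein-coding starts Mrpl18, beside Tcp1, came first, and Mrpl47, beside Ndufb5, exceeded Mrpl50 with a level of 0.72 against 0.68. Mrps5, beside Zfp661, and Mrpl10, beside Lrrc46, were shared and among the lowest. Since 1 OCR covers both starts, its reads cannot be divided between the genes.

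The promoter sequences were searched from 250 bp before to 50 bp after the gene start for the letters of 10 motifs, on both strands. Letters of YY1, a zinc finger regulator, written AANATGGC, were in 20.5% of member promoters, in 8.58% of promoters open in all libraries and in 6.16% of all. Letters of the ETS factors, CCGGAAGT, were in 12.8%, 8.17% and 4.70%, and those of NRF1, a regulator of nuclear genes for mitochondrial proteins, CGCATGCG, in 6.41%, 3.83% and 2.61%. The SP family's GGGCGG was in 44.9% of member promoters, in 61.2% of those open in all libraries and in 43.0% of all. NF-Y letters, CCAAT, were in 35.9%, 38.6% and 39.0%, and the TATA box letters TATAAA in 6.41%, 7.19% and 12.6%. Shares for TGACGTCA (CREB/ATF) were 2.56%, 3.48% and 2.43%, those for CACGTG (E-box) 6.41%, 10.4% and 7.75%, those for CTCGCGAG, a CG-rich palindrome, 3.85%, 1.99% and 1.21%, and those for ACTACAATT (ZNF143) 0%, 0.733% and 0.497%. For the first 3 motifs the comparison groups were near or above the members in part. YY1 letters were in 13.95% of cytosolic ribosomal protein and 17.9% of respiratory chain promoters, ETS letters in 16.3% and 6.32%, and NRF1 letters in 1.16% and 7.37%. Some of these orders depended on the window. In the 150 bp on either side of the mean summit, the YY1 letters were in 27.6% of the 76 members open in all libraries, 32.95% of respiratory chain genes, 17.1% of cytosolic ribosomal protein genes and 9.93% of all genes open in all libraries. Within the same distances of the protein-coding start as above, they were in 21.1% of the same 76 members (20.5% of all 78), 21.1% of respiratory chain genes, 16.3% of cytosolic ribosomal protein genes and 9.27% of open promoters. TATA box letters were in 6.58% of members and 4.11% of open promoters around the summit, and in 7.69% and 6.18% at the protein-coding start, the reverse of the order at the gene start. Around the summit, E-box letters were in 10.5% of both and NF-Y letters in 38.2% and 38.0%. The members' share stayed above that of open promoters in all 3 windows for YY1, ETS, NRF1 and the CG-rich palindrome, the last in only 2 or 3 members, and below it for the SP family, CREB/ATF and ZNF143. CREB/ATF letters were in only 2 members and ZNF143 letters in 0, so these orders rest on very few genes. A match is a string of letters in the reference and does not show that a factor was bound. Median GC content was 57.7% in member promoters and 60.0% in promoters open in all libraries, with observed over expected CpG of 0.820 and 0.754.

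**Figure D5:**
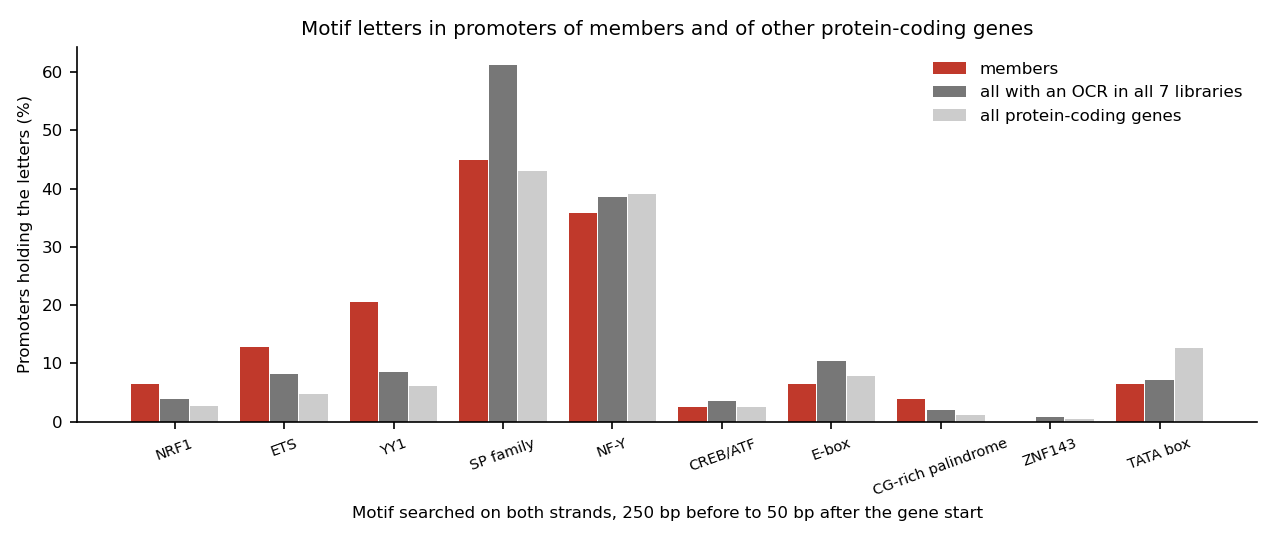
Share of promoters (%) that hold the letters of each of 10 motifs, for the 78 members, for protein-coding genes with an OCR in all 7 libraries and for all protein-coding genes. The members' bar is above both others for YY1 (20.5%), ETS (12.8%), NRF1 (6.41%) and the CG-rich palindrome (3.85%), and below that of open promoters for the SP family (44.9%).

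The YY1 letters fell in 2 positions, read here from the protein-coding transcript start, a window that also held them in 16 members. In 10 members they stood in the written orientation, all 5 to 32 bp after the start, and in 8 of these their ATG was the annotated start codon. The start codon carried these letters in 10.3% of members, 2.25% of genes open in all libraries and 1.28% of all. In 7 members they stood as the reverse complement, all between 200 and 62 bp upstream, and Mrps27 had both placements. Apart from the gene's own start codon the letters were in 11.5% of members, 7.14% of genes open in all libraries and 5.28% of all. In Mrpl32, Mrpl36, Mrps7, Mrps11, Mrps12 and Mrps27 the upstream letters lay past the protein-coding start of the divergent partner, on the partner's strand. Whether their ATG was the partner's start codon was not tested, so these shares may include start codons of partners. Of the sequences below, those of Mrps18b, Mrps24 and Mrps27 show the start codon placement, and those of Mrps11, Mrpl36 and Mrps7 the upstream one. They are from the mouse reference (GRCm38, the mm10 sequence), 5′ to 3′ on the gene's strand, with the YY1 letters or their reverse complement in capitals.
Mrps18b, chr17:35916348-35916377, minus strand: cggtgtgcgtcAAGATGGCtgcccccttgc
Mrps24, chr11:5707647-5707676, minus strand: cgcgccggcccAAGATGGCgtggtccgcgt
Mrps27, chr13:99344789-99344818, plus strand: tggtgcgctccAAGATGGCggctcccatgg
Mrps11, chr7:78783013-78783042, plus strand: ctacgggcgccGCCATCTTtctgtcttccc
Mrpl36, chr13:73328431-73328460, plus strand: tcagcaccgccGCCATCTTgccggtgaccc
Mrps7, chr11:115603852-115603881, plus strand: cttccgcctccGCCATATTgcagccgcccg

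The ETS and NRF1 letters were found at both ends of the order of levels. The next windows show them in Mrpl18 and Mrpl3, the most intense member and the lowest with an OCR at its protein-coding start, for ETS, and in Mrpl17 and Mrpl22 for NRF1, with the same conventions. Mrpl17, the L17 protein, had a mean fold enrichment of 183 and Mrpl22 one of 37.4.
Mrpl18, chr17:12916313-12916342, minus strand: aactgaaaacgCCGGAAGTagggggctgcg
Mrpl3, chr9:105053238-105053267, plus strand: tgagaaacggaCCGGAAGTggcccggctgt
Mrpl17, chr7:105811079-105811108, minus strand: ccgagttactgCGCATGCGtcctctgagac
Mrpl22, chr11:58171621-58171650, plus strand: gcctcggactgCGCATGCGtatagtcagcc

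Genes that work with the mitochondrial ribosome were read in the same way. Of 16 mitochondrial aminoacyl-tRNA synthetase genes tested, which charge the tRNAs of the organelle, 13 were above the median promoter OCR and 1, Lars2, was below it at -0.58. Sars2, among the 13, shares its OCR with the member Mrps12, so its level of 0.60 is the same measurement. Cars2 (1.05) and Mars2 (0.99) were the highest, and Tars2 had no OCR at its gene start. Of 9 translation factor genes, 2 were above and 6 below, from Mtrf1l, a release factor, at 1.34 to Mtif3, an initiation factor, at -1.81. Of 18 assembly genes 5 were above and 12 below, led by Tfb1m, a methyltransferase of the small subunit RNA, at 1.54. Of 6 genes of mitochondrial transcription and RNA, 3 were above, with Tfb2m at 1.23 and Tfam at 0.83, and 3 below. Of 5 mitochondrial ribosomal proteins with other symbols, Dap3 was above at 0.56, Ptcd3 (-1.01), Gadd45gip1 (-0.90) and Chchd1 (-0.72) were below, and Aurkaip1 was at -0.09. All calls are from limma with adjustment over the 11327 genes, where 45.6% of genes were above and 45.7% below.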

How the data were processed

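Bulk ATAC-seq libraries of HPC7 from 7 culture batches were analysed. The authors trimmed adapters with Cutadapt, used BWA-mem for alignment to mm10 and MACS2 for peak calling in each library (versions not given in the sources used here). They deposited 1 peak list per library. Per the file format, the deposited columns hold the fold enrichment (a ratio of summit pileup over background), −log10 p and −log10 q, a score derived from the latter, and the summit's offset as another value. No input control, read shift or duplicate setting is given. In each library 100% of fold enrichments were within 0.05 of whole multiples of 1 step, from which 1 background value per library and the reads at summits were estimated.

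For each of 21938 protein-coding genes of GENCODE M21 (chromosomes 1 to 19, X and Y), the most intense peak within 1 kb of the gene's 5′ end was taken. All OCR ends lay within the GRCm38 chromosome lengths. A shared OCR reached within 100 bp of both starts. Per-gene levels were tested with limma 3.58.1 in R 4.3.3 (intercept against 0, adjusted p threshold 0.05) and neighbours with exact sign-flip permutations, after tests on simulated data. Named genes were the 5 highest and 5 lowest members, those without an OCR, the 3 widest, the 5 most intense shared, the 3 most variable and a list by role. Mrpl17, Mrpl27, Mrpl47, Mrpl52, Mrpl53, Mrpl58 and the partners named were chosen after their values were seen. Members and lists were chosen with earlier results of these data known. Alternatives were the promoter distance, peak threshold, list length, start definition, sharing definition, genes ranked or tested, test, motif window and each library left out. The p-values measure the spread between culture batches of 1 line.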

Additional observations from a re-analysis of the deposited data

Results flagged for a closer look

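Of 34 measures over the 7 libraries, 3 had a library farther from the others than Dixon's criterion allows, and chance alone gives about 1 in 20. The members' median OCR width was 1818 bp in HPC7-1, and the next widest library, HPC7-4, had 1508 bp. HPC7-1 also had the most OCRs (132852) and the highest estimated background, and their part in the width was not tested. The level of Mrps16 was 0.98 in HPC7-1, and the next lowest was 1.26 in HPC7-7. The level of Mrps5 was -1.61 in HPC7-4, and the next lowest was -1.26 in HPC7-6.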

How the results depend on the processing

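No paired analysis was possible because the libraries form 1 group, and the tests of neighbouring genes already compare 2 genes within each library. The share of members with an OCR was 100% with a 3 kb distance or protein-coding transcript starts and 97.3% when a −log10 q of at least 5 was required. The median percentile was 70.2 with 3 kb, 70.3 with protein-coding starts, 69.1 among genes of the same chromosome and 48.1 among genes with an OCR. The share with a divergent gene was 25.6% with partners of any biotype, 21.8% with starts up to 500 bp apart, 29.5% with overlaps of up to 300 bp and 38.5% with protein-coding starts and such overlaps. Members above the median promoter OCR numbered 24 to 34 and those below 33 to 37 over 12 alternatives, leaving out each library included. Mrps24 turned from -4.04 to 0.10 at its protein-coding start, and Mrpl45 from -0.09 to 0.044 (limma adjusted p = 0.55) when genes with an OCR in 1 or more libraries were tested. That setting took the reference median over this larger set, and the 11327 genes open in all libraries rose by a median of 0.14 against it. Mrpl45, Mrps34 (-0.13), Mrpl12 (0.29), Mrpl24 (-0.23) and Mrps18c (-0.12) moved by the same amount. Mrps34 was then no longer below (limma adjusted p = 0.0712). Mrps5 went from -1.23 to -0.54 with 3 kb. Mrps7 was above in 3 alternatives. The distances of 500 bp and 3 kb and the protein-coding starts in the limma test, and the libraries left out for the width and the sharing, were added after seeing the data. Depth limits the weak OCR at the Mrps24 gene start, where a summit held as few as 19 reads.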

Other observations

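A few members had another protein-coding start inside their OCR that the divergent definitions did not take, in all 7 libraries. The start of Slc5a3, a myo-inositol transporter gene, lay 52 bp from that of Mrps6 on the same strand, so that both genes were read from 1 OCR in the same direction. The OCR of Mrpl34 also held the start of Abhd8, upstream and on the opposite strand, that of Mrpl48 the start of the vesicle traffic gene Rab6a 891 bp into the gene, and that of Mrpl9 the start of Oaz3 597 bp into the gene. With any other protein-coding start counted, 35 of the 76 members with an OCR (46.1%) shared it, against 22.2% of the 11327 protein-coding genes open in all libraries.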
